A study of Mus musculus with 12 samples.

Results

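Molecular chaperones were followed in alveolar macrophages, which patrol the air sacs of the lung, in a mouse model of lung transplantation. The genes are the protein-coding members of the HSP70, HSP110, HSP90, small heat shock protein and DNAJ families, the mitochondrial chaperonin pair, the cytosolic chaperonin CCT and the heat shock factors Hsf1 and Hsf2. They were taken by symbol (names starting Hspa, Hspb, Hspd, Hspe, Hsph, Hsp90, Dnaja, Dnajb or Dnajc, plus Tcp1, Cct2 to Cct8, Hsf1 and Hsf2), which gave 84 of the 43430 genes in the table. Cct6a was kept because the list names it, although the annotation used here types it as a processed transcript. Hspa14 is not analysed here. By symbol alone the choice also takes in Hspbp1 and Hspbap1, which are partners of heat shock proteins and not small heat shock proteins, and Hspb11, a protein of intraflagellar transport.

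The 12 libraries of polyadenylated RNA form 3 groups of 4. One group came from naive lungs, one from lungs 2 h after reperfusion, when blood again flows through the graft, and one from lungs 24 h after it. Every library is given as from 14 weeks old male mice of genotype Cx3cr1gfp/+B6, naive controls included. The 2 h and 24 h titles also carry an unexplained Allo. Whether replicates were different animals is not stated, so the p-values reflect the scatter between libraries and this scatter may be technical.

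Chaperones bind proteins that are not yet folded or have come unfolded. HSP70 proteins hold and release short stretches of a client in a cycle driven by ATP. DNAJ proteins, also called J proteins, bring clients to HSP70 and trigger ATP hydrolysis, and nucleotide exchange factors such as the HSP110 proteins reset the cycle. HSP90 acts later, on nearly folded kinases and receptors, while CCT encloses actin, tubulin and other cytosolic proteins in a double ring. Each compartment has its own set: Hspa5 and Hsp90b1 serve the endoplasmic reticulum (ER), and Hspa9 with Hspd1 and Hspe1 serves the mitochondrion. Cytosolic genes of the system are induced by the factor Hsf1 through the heat shock element, and ER genes by the unfolded protein response through the ER stress response element.

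Those 2 motifs were searched in RefSeq promoter windows of mouse assembly GRCm38.p6, which run from 250 bases before to 50 bases after a gene's start and exist for 68 of the 84 genes. The heat shock element was searched as GAA, TTC and GAA with 2 bases of any kind between neighbours, and the ER stress response element as CCAAT and CCACG with 9 bases of any kind between them. Both strands were read, and matches of 1 motif may overlap. The 16 genes without a window, among them Hspa8, Hspa9, Hsp90aa1, Hsp90ab1 and Hsf1, were not searched. A heat shock element stood in 4 of 68 genes (5.88%), against 179 of 27025 genes in all (0.662%). The ER stress response element stood in 3 of 68 (4.41%), against 37 of 27025 (0.137%). A match describes letters only. The sequences are printed in gene orientation, 5′ to 3′, with the matched letters in capitals, because the genes that hold them are followed by library below.
Hspe1, chr1:55088053-55088082, plus strand, 2 overlapping matches: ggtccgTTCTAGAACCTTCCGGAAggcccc
Hspd1, the same bases on the minus strand: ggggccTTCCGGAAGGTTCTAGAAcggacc
Dnajb6, chr5:29735844-29735872, plus strand: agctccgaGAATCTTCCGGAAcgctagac
Hsph1, chr5:149636280-149636308, minus strand: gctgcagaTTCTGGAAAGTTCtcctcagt
Hspa5, chr2:34772020-34772048, plus strand: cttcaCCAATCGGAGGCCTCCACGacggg

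Hspd1 and Hspe1 are transcribed away from each other, and the same 18 bases hold the matches of both. The element of Hsph1 lies after its start, not before. For the other ER genes with a match, longer stretches before the start are shown, outside every annotated exon. Hsp90b1 has 2 matches in opposite orientation and Dnajc3 has 1.
Hsp90b1, chr10:86705510-86705694, minus strand: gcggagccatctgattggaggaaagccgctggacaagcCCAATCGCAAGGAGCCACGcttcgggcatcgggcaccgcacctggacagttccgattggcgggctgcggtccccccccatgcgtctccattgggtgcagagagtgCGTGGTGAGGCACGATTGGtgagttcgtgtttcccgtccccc
Dnajc3, chr14:118937682-118937931, plus strand: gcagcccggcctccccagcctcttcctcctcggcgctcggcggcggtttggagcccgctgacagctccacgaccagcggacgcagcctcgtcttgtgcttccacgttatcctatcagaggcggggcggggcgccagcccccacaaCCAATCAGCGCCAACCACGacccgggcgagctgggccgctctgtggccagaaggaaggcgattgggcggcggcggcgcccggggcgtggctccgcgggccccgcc

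Of the 84 genes, 65 reached at least 1 RPKM in at least 4 of the 12 libraries and were tested. RPKM is a read count divided by the kilobases of the gene model and by the total reads of the library. The other 19 were not tested, and 4 of them (Dnajc22, Dnajc5g, Hspb3 and Hspb7) were listed at 0 in every library. Most of the classical small heat shock proteins were at this low end. Hspb1, the stress-inducible one, had 1 to 4 reads in the naive libraries, 2 to 6 at 2 h and 1 to 2 at 24 h, too few for a comparison. Cct6b and Dnajb8, genes known from testis, had at most 5 and 1 reads in any library.

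Levels of different genes were compared as RPKM recomputed with the length of all annotated exons of a gene, because the authors' gene lengths are not those of the annotation. On that scale the most abundant in naive were the constitutive cytosolic Hsp90ab1 at 590, the constitutive Hspa8 at 398 and the ER pair Hsp90b1 and Hspa5 at 281 and 270. Cct2 followed at 81.2 and Hsp90aa1, the inducible HSP90, at 69.1. At 2 h Hspa8 was at 178, below Hsp90b1 with 250 and Hspa5 with 240. At 24 h it was at 302, a mean over libraries that differ widely, as given below.

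The libraries held 6112586 to 11997945 reads, and Pearson's r of log2(RPKM + 1) between pairs of libraries, computed across genes that are not independent of each other, was 0.968 to 0.987 within groups and 0.909 to 0.96 between groups. All 14 alveolar macrophage markers were tested. Their summed level was 11900 to 12300 RPKM in naive, 8500 to 9670 at 2 h and 10100 to 11800 at 24 h, most of it Chil3. The markers moved both ways against naive. At 2 h 2 were higher and 3 lower (14.3% and 21.4%, against 14.7% and 22% of all genes). At 24 h 4 were higher and 8 lower (28.6% and 57.1%, against 25.3% and 20.6% of all genes). Marco went from 94.9 ± 10.6 to 398 ± 25.8 RPKM between naive and 24 h and Siglecf from 58.3 ± 3.15 to 27.1 ± 7.27 (SD, n = 4 each, limma adjusted p = 3.56e-06 and 0.000167). Of the markers of other cells, the 9 epithelial ones summed highest, to 66.5 to 71.7 RPKM in naive, 59.5 to 77.6 at 2 h and 33.2 to 40.7 at 24 h, most of it Epcam, which fell from 42.5 ± 2.25 to 12.2 ± 2.91 RPKM between naive and 24 h (SD, n = 4 each, limma adjusted p = 3.64e-06). At 24 h against naive Epcam was the 1 epithelial marker of 4 tested that was lower (20.6% of all genes). None of the others was higher, and 3 did not pass, so the fall of the sum is that of Epcam. The 7 monocyte markers summed to 25 to 27.1, 11.9 to 18.6 and 21.3 to 30.4 RPKM, most of it Fn1 (22.3 to 23.5 in naive). The 7 interstitial macrophage markers summed to 6.34 to 10.5, 2.81 to 5.32 and 3.53 to 8.94 RPKM. Of these, 3 of 4 tested were lower at both times against naive (22% and 20.6% of all genes). The 9 lymphocyte markers summed to 9.71 to 16.9, 2.29 to 7.8 and 1.5 to 3.13 RPKM, with all 4 tested lower at both times. The 10 neutrophil markers summed to 14.1 to 20.9, 13.7 to 22.5 and 30.3 to 37.4 RPKM. Of the 2 tested, S100a8 rose from 10.2 ± 2.54 to 29.8 ± 2.74 RPKM between naive and 24 h and Csf3r fell from 6.51 ± 0.841 to 2.01 ± 0.548 (SD, n = 4 each, limma adjusted p = 5.83e-05 and 3.99e-05), while Elane was listed at 0 throughout and Ly6g was above 0 in 1 library. The part of these cells in the results below was not tested. In bulk RNA, fewer cells of a type and less RNA per cell cannot be told apart.

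The first comparison sets 2 h against naive. The constitutive Hspa8, the ER J protein Dnajb9 and the heat-inducible J protein Dnajb1 fell, while the mitochondrial Hspa9 rose. By limma at an adjusted p under 0.05, 8 of 65 tested members were higher (14.7% of all 11419 tested genes were) and 10 were lower (22% of all). Together 18 passed (36.7% of all) and 47 did not. The median log2 fold change was -0.02, against -0.04 over all tested genes, and the libraries of the 2 groups did not overlap in 19 members (34.5% of all genes). With median-ratio scaling 11 members were higher and 8 lower (18.1% and 17.9% of all genes). Without the library of each group that was most often the highest for these genes (naive replicate 2, 2 h replicate 4 and 24 h replicate 2) the counts were 9 and 15 (13.7% and 21.2% of all genes). Those 3 libraries were picked on the values of these genes, which narrows the spread that remains, so no gene is called from that fit and only its fold changes and lost calls are given.

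Hspa8 measured 130, 173, 140 and 131 RPKM in naive and 68, 39.8, 44.7 and 103 at 2 h. All 4 naive libraries lay above all 4 at 2 h, where replicate 4 was the highest. Hspa8, which folds new proteins and strips clathrin from vesicles, fell from 143 ± 20 to 63.9 ± 28.9 RPKM (SD, n = 4 each), a log2 fold change of -1.24 ± 0.33 (SE, limma adjusted p = 0.0117). At 24 h it measured 101, 188, 77.1 and 69.3 RPKM, so replicate 2 lay above every naive library and the others below. Neither 24 h against naive (log2 fold change -0.50, limma adjusted p = 0.238) nor 24 h against 2 h (0.75, limma adjusted p = 0.0754) passed. Without naive replicate 2, 2 h replicate 4 and 24 h replicate 2 the log2 fold changes were -1.41 at 2 h and -0.71 at 24 h against naive, and 0.71 at 24 h against 2 h.

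The size of the fall depends on where reads of near-identical copies are counted. Hspa8 has 10 annotated non-coding copies. Gm15459 (99.7% identical over 1941 bases) and Gm26825 (99.6%) had 6 to 15 and 3 to 8 reads in the naive libraries, 667 to 1437 and 385 to 959 at 2 h, and 7 to 93 and 6 to 71 at 24 h. These 2 are annotated over the same place on chromosome 5 (mm10, 5781615 to 5783555 and 5781530 to 5783636), so a read may have been counted for both. The copies took 0.299 to 0.438% of the combined reads in naive, 11.4 to 22.5% at 2 h and 0.358 to 2.28% at 24 h. With every copy read added to Hspa8, the log2 fold change at 2 h was -0.97 ± 0.32 (SE, limma adjusted p = 0.0317), between means of 144 and 77.1 RPKM. All 4 libraries at 2 h thus carry reads that naive libraries nearly lack, and in the comparison of 2 h with naive, time and any other difference between the groups cannot be told apart.

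**Figure D1:**
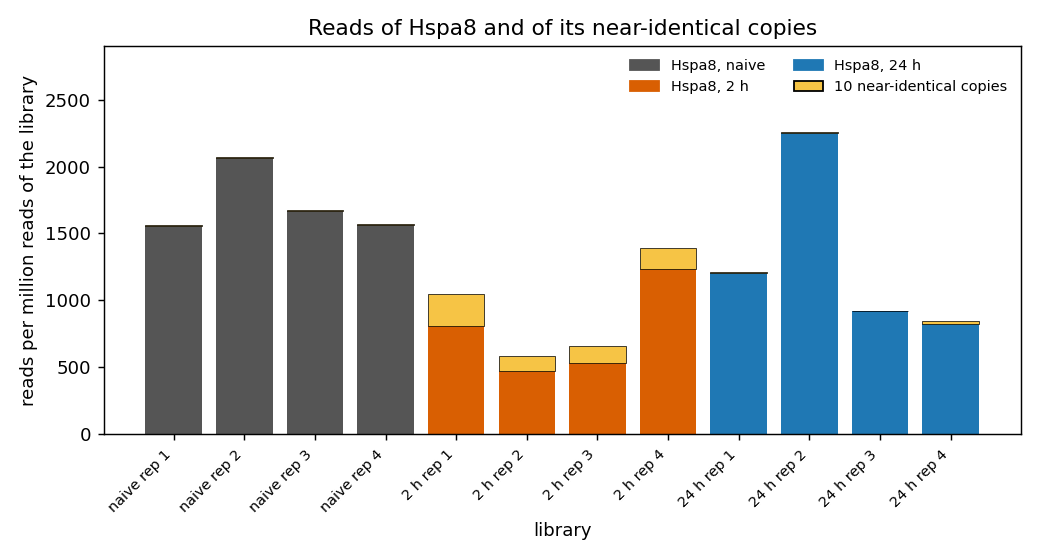
Reads of Hspa8 (solid bars) and of its 10 near-identical copies (yellow, stacked on top), scaled to the total reads of the library (RPM), in each of the 12 libraries. The copies take 11.4 to 22.5% of the combined reads at 2 h and at most 2.28% elsewhere.

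The stress-inducible HSP70 genes Hspa1a and Hspa1b are 99.2% identical over 2201 bases, so their reads cannot be told apart with certainty. Together they had 132, 224, 79 and 95 reads in naive, 48, 16, 32 and 114 at 2 h, and 72, 606, 19 and 16 at 24 h. One library in each group stood well above its neighbours, naive replicate 2, 2 h replicate 4 and 24 h replicate 2. Hspa1b was 3.04, 6.21, 1.91 and 3.85 RPKM in naive, 1.01, 0.276, 0.872 and 3.20 at 2 h, and 1.25, 13.7, 0.337 and 0.352 at 24 h. Its log2 fold change was -1.09 at 2 h (95% interval -2.56 to 0.38, limma adjusted p = 0.229) and -0.70 at 24 h (-2.17 to 0.78, limma adjusted p = 0.43). Hspa1a gave -0.87 and -0.57, neither of which passed. Without the 3 high libraries, which are the highest for these genes, the values at 2 h and 24 h were -0.99 and -0.95 for Hspa1a and -1.19 and -1.27 for Hspa1b. Exons of Gm20481 overlap 19% of the Hspa1a exons on the other strand.

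Hspa12a, a distant relative of HSP70, measured 32.5, 35.3, 35.0 and 30.8 RPKM in naive, 20.8, 19.9, 20.8 and 30.8 at 2 h, and 25.3, 25.7, 24.1 and 26.4 at 24 h. It fell at both times against naive, by 0.53 and by 0.38 on the log2 scale (limma adjusted p = 0.00382 and 0.0166). Of the 8 tested HSP70 genes, 1 was higher and 2 were lower at 2 h (12.5% and 25%, against 14.7% and 22% of all genes). At 24 h against naive 1 was higher and 1 lower (12.5% each, against 25.3% and 20.6% of all genes). Hspa2, at 2.24 RPKM in naive, did not pass in any comparison. The ER member Hspa13 passed for 24 h against 2 h alone (0.39, limma adjusted p = 0.0258), a call lost in 8 of 24 other fits, including without 2 h replicate 1, 2 or 3 and 24 h replicate 1 or 2.

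Of the HSP110 exchange factors, Hspa4 was 28.1, 31.0, 31.7 and 28.4 RPKM in naive, 25.8, 30, 32.7 and 29.4 at 2 h, and 34.6, 38.9, 34.1 and 37.7 at 24 h. It rose at 24 h against naive (0.28, limma adjusted p = 0.00931), with no overlap between the groups. The stress-inducible Hsph1 measured 6.41, 10.5, 7.19 and 7.42 RPKM in naive, 5.18, 2.61, 3.25 and 9.14 at 2 h, and 7.14, 13.1, 3.92 and 4.79 at 24 h. Its groups overlapped and no comparison passed (-0.65 at 2 h, 95% interval -1.43 to 0.12, limma adjusted p = 0.171). Without the 3 high libraries, which are its highest, the value at 2 h was -0.81. Hspa4l passed in no comparison.

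**Figure D2:**
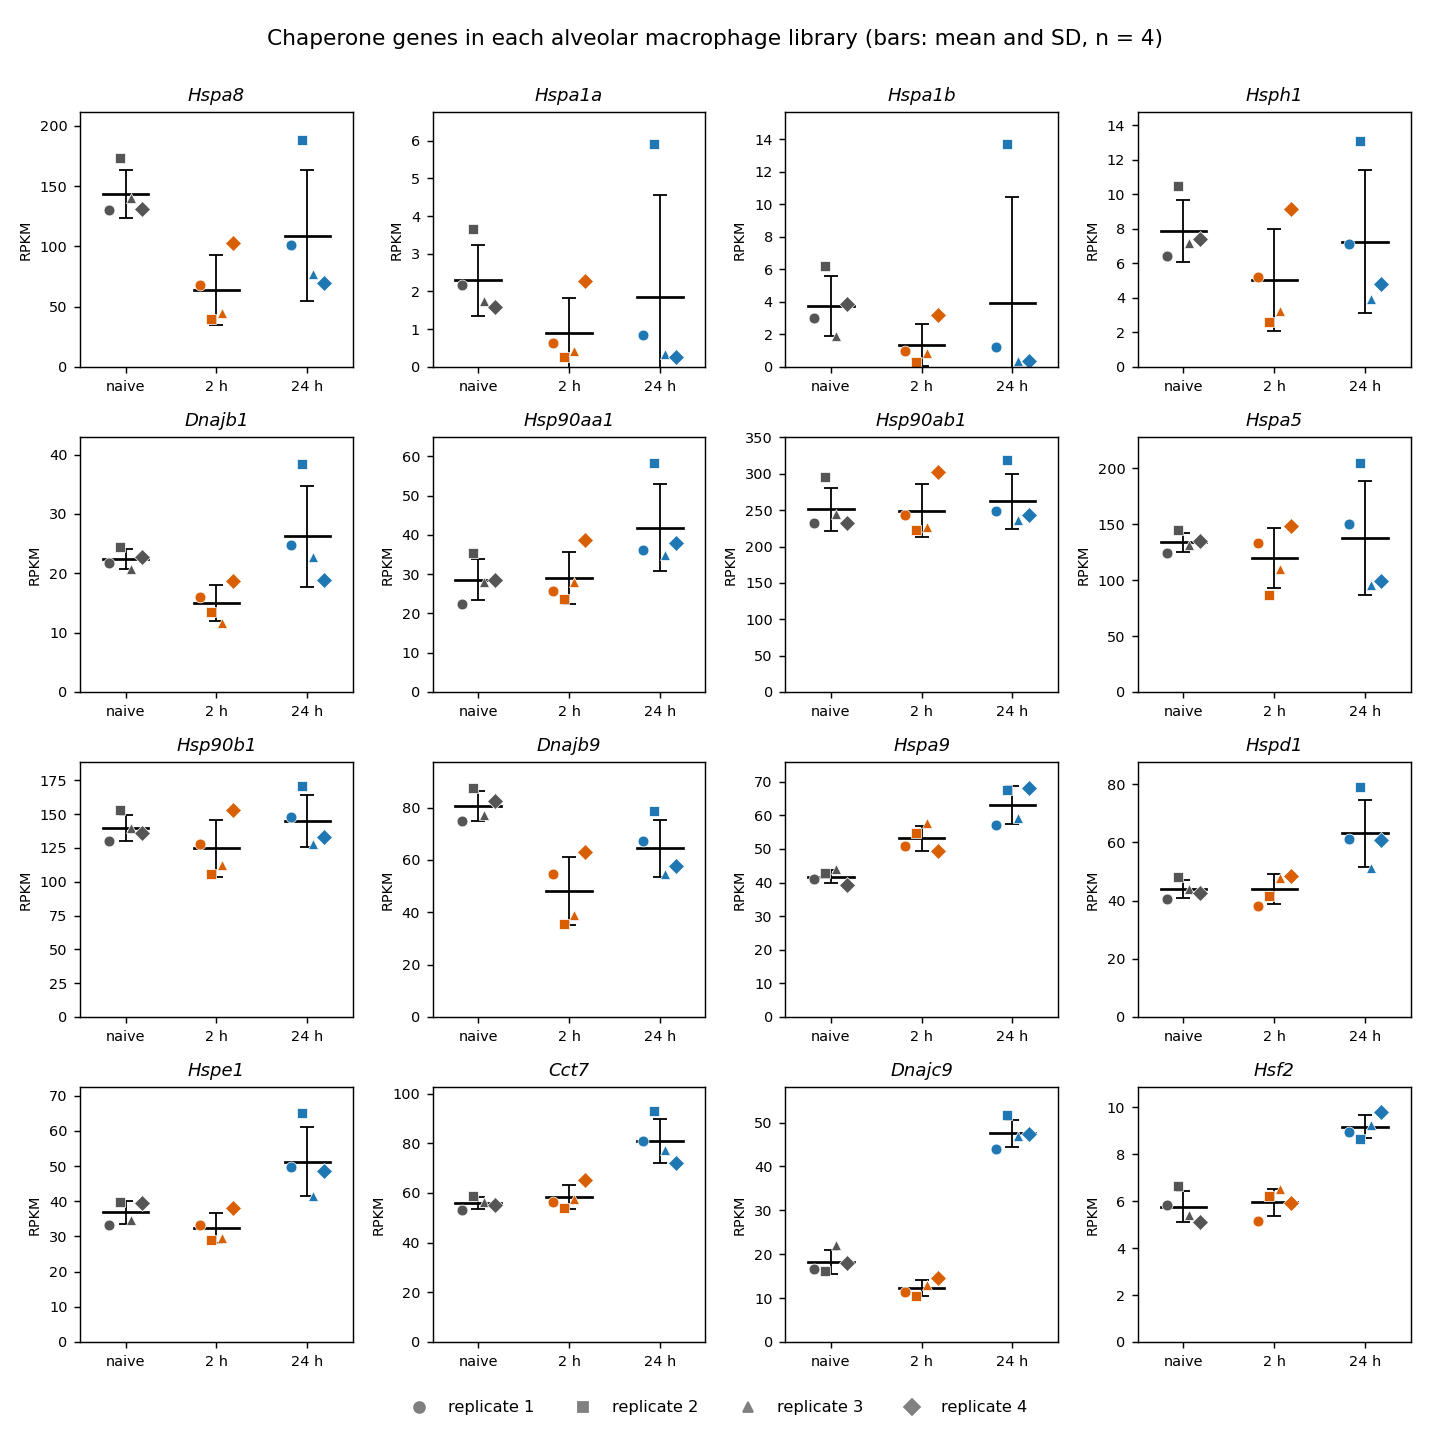
RPKM of 16 chaperone genes in each library. Symbols mark the replicate number, horizontal lines the mean and vertical bars the SD of 4 libraries, cut at 0. The highest Hspa8 values within groups are naive replicate 2 (173), 2 h replicate 4 (103) and 24 h replicate 2 (188), and Dnajc9 stands at 44.1 to 51.7 at 24 h against 10.4 to 22 before.

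The cytosolic J proteins divided. Dnajb1, the partner of HSP70 in protein disaggregation, was 21.7, 24.5, 20.7 and 22.8 RPKM in naive and 16.0, 13.4, 11.7 and 18.7 at 2 h. It fell at 2 h by 0.57 on the log2 scale (SE 0.19, limma adjusted p = 0.0326) with no overlap. That call was lost with no filter on low values and without naive replicate 1, 2 or 4 or 2 h replicate 2 or 3 (adjusted p up to 0.0887). At 24 h it measured 24.8, 38.4, 22.8 and 18.8 RPKM, higher than at 2 h (0.74, limma adjusted p = 0.00565). Against naive the value was 0.17 (adjusted p = 0.487).

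Dnajb6, which holds back protein aggregation, went the other way. Dnajb6 measured 6.49, 7.34, 6.72 and 7.13 RPKM in naive, 9.89, 7.44, 8.48 and 8.64 at 2 h, and 7.22, 6.46, 6.32 and 7.25 at 24 h. It rose at 2 h (0.28 ± 0.08, SE, limma adjusted p = 0.0152) and fell again from 2 h to 24 h (-0.30, adjusted p = 0.00649). Dnajc5, the cysteine string protein of secretory vesicles, rose at 2 h from 17.5 ± 0.984 to 22.3 ± 1.02 RPKM (SD, n = 4 each, limma adjusted p = 0.000592). It was still above naive at 24 h, at 20.2 ± 0.58 RPKM (SD, n = 4, adjusted p = 0.00866). Its fall from 2 h to 24 h (-0.14) was lost in 10 of 24 other fits, including without any single 24 h library, naive replicate 1 or 3, or 2 h replicate 1, 2 or 3.

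Dnajc9, a co-chaperone of histones H3 and H4, had the largest rise of the tested members at 24 h. It measured 16.7, 16.1, 22.0 and 18 RPKM in naive, 11.4, 10.4, 12.9 and 14.6 at 2 h, and 44.1, 51.7, 46.9 and 47.4 at 24 h, so the 3 groups were wholly separate. It fell at 2 h (-0.53 ± 0.11, SE, limma adjusted p = 0.00332) and was 2.61-fold higher than naive at 24 h (log2 fold change 1.35 ± 0.11, SE, limma adjusted p = 1.64e-06). From 2 h to 24 h the log2 fold change was 1.87 (limma adjusted p = 6.58e-08).

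Other cytosolic J proteins moved less. Dnajc8, a splicing factor, and Dnaja2, a general HSP70 partner, rose at 2 h by 0.20 and 0.17 and at 24 h by 0.42 and 0.24. The 2 h call of Dnaja2 (limma adjusted p = 0.0373) was lost in 10 of 24 other fits, including without naive replicate 1, 2 or 4, 2 h replicate 2, 3 or 4, or 24 h replicate 1. Dnajc2, which works at the ribosome, rose at 24 h (0.40, limma adjusted p = 0.00128), as did Dnajc21 of ribosome biogenesis (0.27, limma adjusted p = 0.00598). Dnajb2 fell at 24 h, from 1.35 ± 0.253 to 0.657 ± 0.239 RPKM (SD, n = 4 each, limma adjusted p = 0.00347). Its fall at 2 h (-0.34, adjusted p = 0.0365) was lost in 11 other fits, including without naive replicate 1, 2 or 4 or 2 h replicate 1, 2 or 3. That of Dnajc24, of diphthamide synthesis (-0.28, adjusted p = 0.0369), was lost in 9, including without naive replicate 1 or 4 or 2 h replicate 1, 2 or 3. Dnaja1 (-0.46 at 2 h, adjusted p = 0.122) and Dnajb13 did not pass. Dnajb13 shares 11.2% of its exons with Ucp2 on the other strand, a gene of up to 241 RPKM, and its values are uncertain.

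Hspb9, a small heat shock protein known from testis, was 0.248, 0.458, 0.679 and 0.356 RPKM in naive (3 to 7 reads), 1.62, 1.61, 2.03 and 2.2 at 2 h (22 to 24 reads), and 0.907, 0.536, 1.14 and 0.556 at 24 h. It rose at 2 h (1 ± 0.13, SE, limma adjusted p = 0.000228) and fell from 2 h to 24 h (-0.69, adjusted p = 0.00101), at very low levels throughout. Hspbap1 fell at 2 h from 4.29 ± 0.359 to 2.68 ± 0.587 RPKM (SD, n = 4 each, limma adjusted p = 0.00278). It was 3.57 ± 0.292 at 24 h, above 2 h (0.33, adjusted p = 0.0242), a call lost with no filter and without 24 h replicate 3 or 4. Hspb6, a small heat shock protein of muscle, went from 1.60 ± 0.19 to 2.73 ± 0.364 RPKM (SD, n = 4 each) between naive and 24 h (0.52, limma adjusted p = 0.000475). Hspbp1, which releases nucleotide from HSP70, rose at 24 h from 20.3 ± 0.776 to 28.4 ± 1.9 RPKM (SD, n = 4 each, limma adjusted p = 5.81e-05).

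The next comparisons set 24 h against naive and against 2 h. Against naive, 7 of 8 mitochondrial members and 7 of 8 CCT subunits rose, and so did Hsf2, while 2 of 13 ER members did. Over all 65 members, 30 were higher (25.3% of all tested genes) and 5 were lower (20.6% of all), so that 35 passed (45.9% of all) and 30 did not. The median log2 fold change was 0.17 against 0.00 over all genes, and 35 members did not overlap (47.9% of all). Without the 3 high libraries, 26 were higher and 9 lower (21.1% and 16.3% of all genes).

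Against 2 h, 29 were higher (30.9% of all) and 5 lower (21.5% of all), which makes 34 passed (52.5% of all) and 31 not, with a median of 0.22 against 0.05 and no overlap in 27 (45.7% of all). With median-ratio scaling 20 members were higher and 7 lower (30.8% and 10.8%, against 26.1% and 26.4% of all genes). Over all genes the counts were then 2984 and 3011 in place of 3534 and 2458. Without the 3 high libraries 27 members were higher and 5 lower (28.8% and 18.2% of all genes). The share of members higher at 24 h against 2 h was 44.6% in the fit of all 12 libraries without that scaling. The comparisons share groups, so their counts are not independent.

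All 8 tested subunits of CCT were higher at 24 h than at 2 h (30.9% of all genes were). At 24 h 7 of 8 were higher than naive (25.3% of all genes). The medians were 0.30 and 0.41. Tcp1, the alpha subunit, measured 14.6, 15.4, 15.9 and 15.2 RPKM in naive, 14.8, 15.6, 17.2 and 17.9 at 2 h, and 19.8, 22.7, 19.7 and 20.3 at 24 h. It rose 1.35-fold against naive (0.41 ± 0.07, SE, limma adjusted p = 0.000374), and every 24 h library lay above the other 8. Cct7 went from 55.9 ± 2.31 to 80.9 ± 8.85 RPKM (SD, n = 4 each, 0.52, limma adjusted p = 0.000218) and Cct8 from 21.6 ± 0.709 to 28.4 ± 1.94 (SD, n = 4 each, 0.38, limma adjusted p = 0.000132). Cct3 and Cct5 rose by 0.42 and 0.26 against naive.

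Subunits of the same ring differed at 2 h. Cct2 measured 105, 110, 107 and 102 RPKM in naive and 120, 125, 128 and 123 at 2 h, a rise of 0.22 (limma adjusted p = 0.00499), and 135, 151, 131 and 145 at 24 h. Cct4 measured 23.2, 24.8, 25.4 and 25.6 RPKM in naive and 20, 18.3, 20.8 and 23.1 at 2 h, a fall of 0.26 (limma adjusted p = 0.0106), and was back at 25.4, 26.5, 23.5 and 24.5 at 24 h (0.01 against naive, adjusted p = 0.896). Neither gene's naive and 2 h libraries overlapped. Cct6a measured 59.7, 68.9, 63.4 and 58.5 RPKM in naive, 65.9, 79.6, 85.6 and 67.7 at 2 h, and 86.7, 109, 82.5 and 85.3 at 24 h (0.52 against naive, limma adjusted p = 0.00149). For 24 h against 2 h, Cct2, Cct3 and Cct6a did not pass with median-ratio scaling (0.11 for Cct2, 0.21 for Cct6a). Nor did these 3 pass without the 3 high libraries (0.14, adjusted p = 0.0537, for Cct2 and 0.15, adjusted p = 0.213, for Cct6a). Cct3 and Cct6a were lost as well without 2 h replicate 1 or 4 or 24 h replicate 1 or 2, and Cct6a without naive replicate 3.

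CCT cofactors and clients were counted beside the ring. Of 11 tested prefoldin and CCT cofactor genes, 5 were higher and 1 lower at 24 h against naive, and 6 and 0 against 2 h. The 6 called each time are 54.5% of the list, against 45.9% and 52.5% of all genes. Pfdn1 and Pfdn6, subunits of prefoldin, which hands actin and tubulin to CCT, rose by 0.58 each against naive (limma adjusted p = 0.000151 and 0.000185). Pdrg1 fell at 2 h (-0.68, limma adjusted p = 2.19e-05) and rose from 2 h to 24 h (0.59). Of 11 actin and tubulin genes 7 were higher and 2 lower at 24 h against naive, in all 81.8%, against 45.9% of all genes. Tuba1b and Tubb5, an alpha and a beta tubulin, went from 67.5 ± 3.45 to 165 ± 10.7 and from 125 ± 7.34 to 302 ± 19.4 RPKM (SD, n = 4 each, limma adjusted p = 4.18e-08 and 1.66e-07).

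In the mitochondrion 7 of 8 tested members were higher at 24 h than in naive (25.3% of all genes), and 0 were lower (20.6% of all). The median was 0.40. Hspa9, the HSP70 that pulls imported proteins into the matrix, rose at each step. It measured 41.0, 42.8, 44.0 and 39.3 RPKM in naive, 51.0, 54.6, 57.6 and 49.3 at 2 h, and 57.2, 67.6, 59.2 and 68.2 at 24 h. The log2 fold change was 0.34 at 2 h (SE 0.07, limma adjusted p = 0.00357) and 0.58 at 24 h (SE 0.07, adjusted p = 4.73e-05), both without overlap. The step from 2 h to 24 h (0.24, limma adjusted p = 0.0131) was lost with median-ratio scaling and without the 3 high libraries (0.17 each).

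The chaperonin Hspd1 (HSP60) and its lid Hspe1 (HSP10), the pair with the shared element printed above, did not pass at 2 h. Hspd1 measured 40.7, 48.1, 44.1 and 42.6 RPKM in naive, 38.0, 41.6, 47.8 and 48.5 at 2 h, and 61.3, 79.0, 51.3 and 60.7 at 24 h. Hspe1 measured 33.3, 39.9, 34.7 and 39.4 RPKM in naive, 33.2, 28.9, 29.5 and 38.0 at 2 h, and 49.8, 65.2, 41.6 and 48.6 at 24 h. In both genes every 24 h library lay above all naive and 2 h libraries, with replicate 2 the highest. Against naive they rose by 0.50 (limma adjusted p = 0.00479) and 0.45 (limma adjusted p = 0.0124), and without the 3 high libraries the values were 0.43 and 0.37. Their annotated ends overlap on opposite strands.

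Dnajc15, a J protein of the import motor, measured 13.5, 11.1, 14.6 and 15.1 RPKM in naive, 16.7, 16.6, 15.8 and 21.1 at 2 h, and 22.5, 27.8, 17 and 24.5 at 24 h. It rose 1.69-fold at 24 h against naive (0.70 ± 0.14, SE, limma adjusted p = 0.00177) with no overlap, and did not pass at 2 h (0.34, adjusted p = 0.0783), where the groups did not overlap either. Another motor protein, Dnajc19 (0.35, limma adjusted p = 0.0484) was lost in 17 of 24 other fits, including without any single 24 h library, naive replicate 2, 3 or 4, or 2 h replicate 3 or 4. Dnaja3, the mitochondrial partner of Hspa9, was 6.35 ± 0.275 RPKM in naive and 8.05 ± 0.571 at 24 h (SD, n = 4 each, 0.30, limma adjusted p = 0.011), and did not pass without the 3 high libraries (0.27, adjusted p = 0.0685). Dnajc11, of the membrane complex that shapes the cristae, rose by 0.25 (limma adjusted p = 0.0275), a call lost with no filter and without naive replicate 2 or 4 or 24 h replicate 2. Dnajc30 did not pass, and shares 26.2% of its exons with Bud23 on the other strand. Of 20 genes of mitochondrial import and proteolysis outside these families, 6 were higher and 2 lower at 2 h, in all 40% against 36.7% of all genes, and 15 and 0 at 24 h against naive, 75% against 45.9%. Grpel1, the exchange factor of Hspa9, was 12.1 ± 0.878 RPKM in naive, 19.2 ± 1.26 at 2 h and 17.6 ± 1.02 at 24 h (SD, n = 4 each, limma adjusted p = 4.17e-05 and 6.14e-05).

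**Figure D3:**
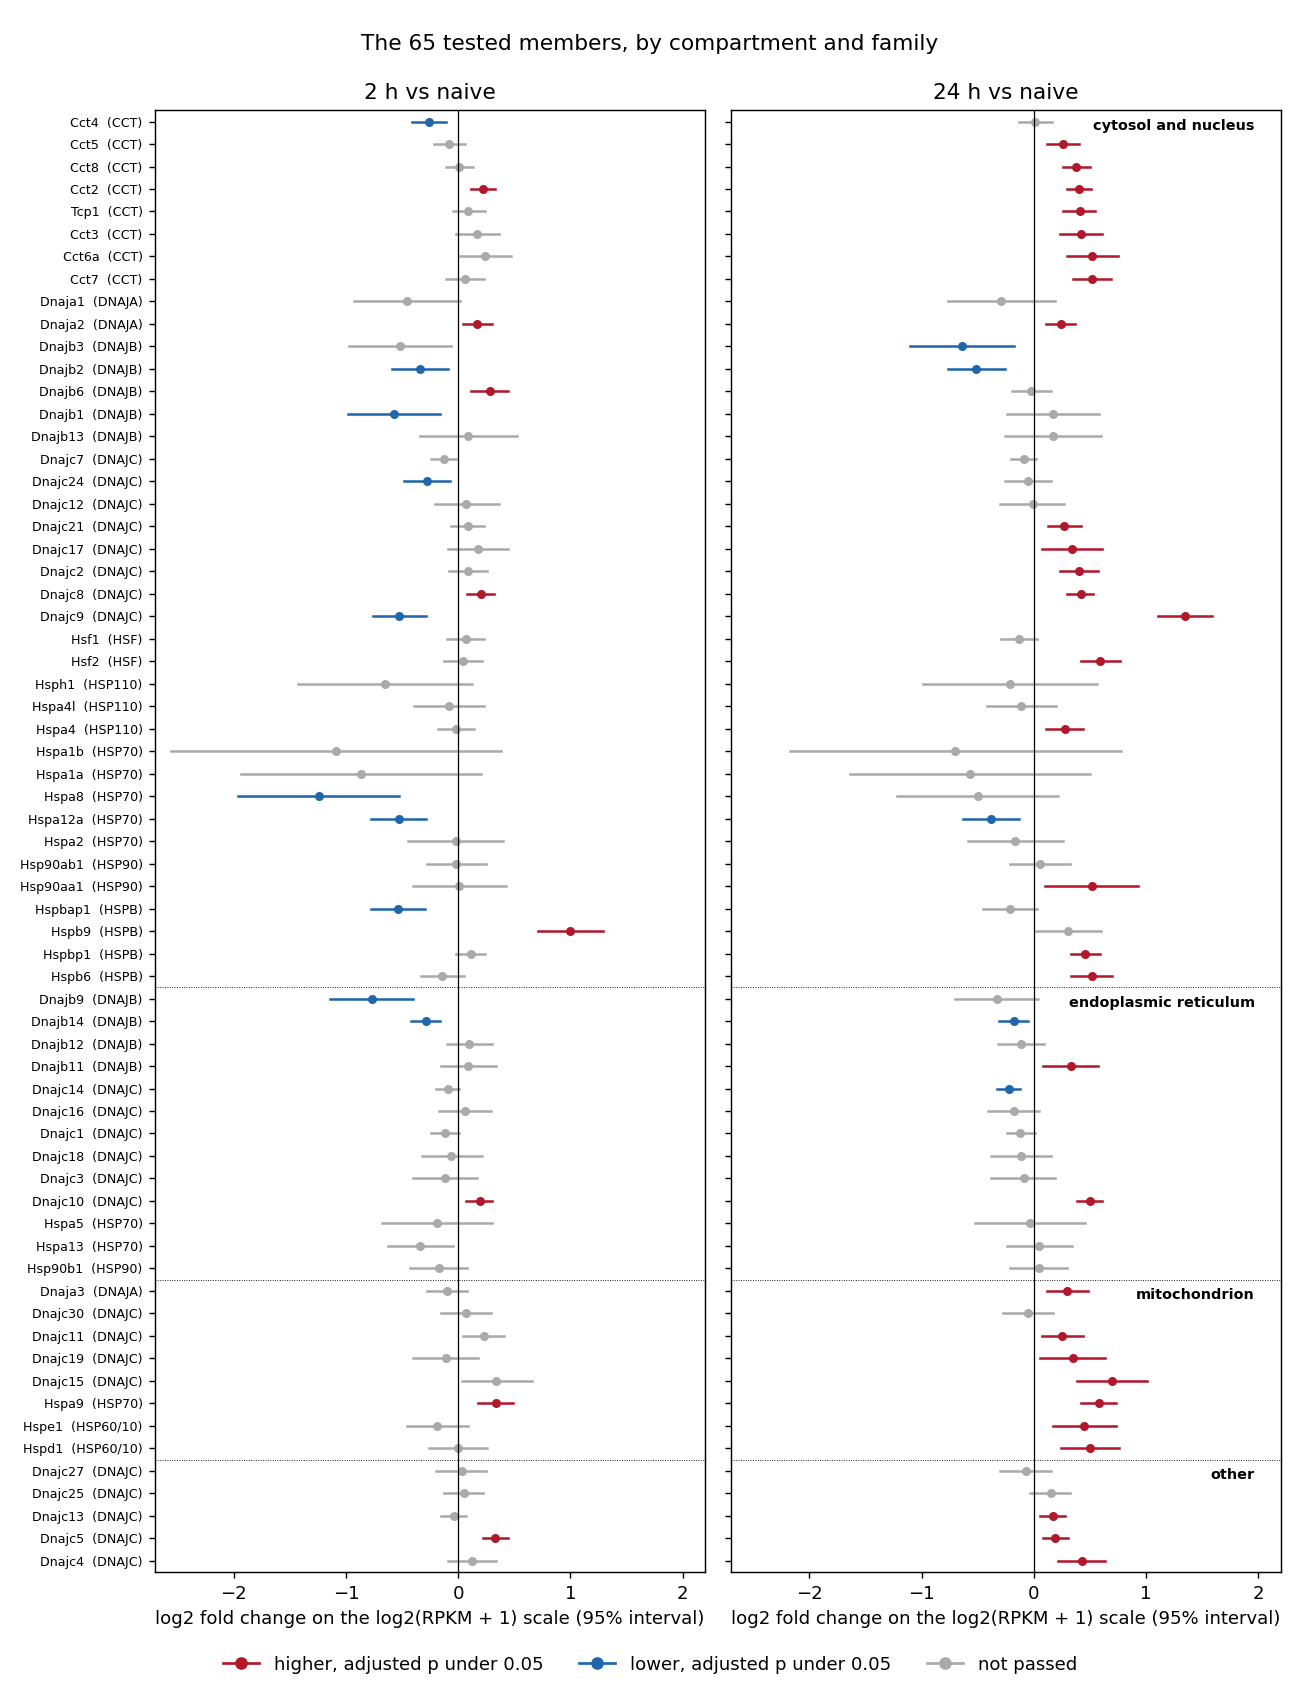
Log2 fold change with 95% interval of the 65 tested members at 2 h (left) and 24 h (right) against naive, by compartment and family. Red and blue mark limma adjusted p under 0.05. At 24 h 7 of 8 mitochondrial and 7 of 8 CCT genes are red, and 2 of 13 in the endoplasmic reticulum.

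In the ER, 13 members were tested. At 24 h against naive 2 were higher and 2 lower (15.4% each, against 25.3% and 20.6% of all genes). At 2 h 1 was higher and 2 lower (7.69% and 15.4%, against 14.7% and 22% of all genes). Hspa5 (BiP), the ER HSP70 and the best known target of the unfolded protein response, measured 124, 145, 131 and 135 RPKM in naive, 133, 87, 110 and 148 at 2 h, and 150, 205, 96.1 and 99.4 at 24 h. The groups overlapped, and the log2 fold changes were -0.19 (95% interval -0.68 to 0.30, limma adjusted p = 0.541) and -0.03 (-0.52 to 0.46, adjusted p = 0.924). Hsp90b1 (GRP94) gave -0.17 (-0.43 to 0.08) and 0.05 (-0.21 to 0.30), and Dnajc3, which inhibits the kinase PERK, gave -0.12 (-0.40 to 0.17) and -0.09 (-0.38 to 0.19), none of which passed. These intervals do not show that the 3 genes stayed level. Hsp90b1 shares 10.3% of its exons with 1810014B01Rik on the other strand, a gene of up to 192 RPKM, which makes its values uncertain.

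Dnajb9 (ERdj4), the J protein that restrains the sensor IRE1, did fall at 2 h. It measured 74.7, 87.5, 77.1 and 82.7 RPKM in naive, 54.5, 35.4, 39.1 and 63.2 at 2 h, and 67.4, 78.6, 54.6 and 57.5 at 24 h. No 2 h library reached the naive range (-0.77 ± 0.17, SE, limma adjusted p = 0.0046). The rise from 2 h to 24 h (0.44, adjusted p = 0.0451) was lost in 13 of 24 other fits, including without any single naive library, 2 h replicate 2 or 3, or 24 h replicate 1 or 2.

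Dnajc10 (ERdj5), a reductase that opens disulfides before degradation, rose at every step. Dnajc10 measured 9.91, 9.85, 10.3 and 8.81 RPKM in naive, 11.9, 10.9, 11.2 and 10.7 at 2 h, and 14.1, 14.4, 14.1 and 14.1 at 24 h, with no overlap between any groups (0.50 at 24 h, limma adjusted p = 1.21e-05). Dnajb11 (ERdj3), the other rise at 24 h (0.33, limma adjusted p = 0.0311), was lost in 7 of 24 other fits, including without naive replicate 1, 3 or 4 or 24 h replicate 1 or 2. The ER membrane J protein Dnajb14 fell at 2 h, from 10.3 ± 0.811 to 8.20 ± 0.12 RPKM (SD, n = 4 each, limma adjusted p = 0.00262). Its value at 24 h (-0.18, adjusted p = 0.0247) was lost without naive replicate 1 or 4 or 24 h replicate 1 or 2. Dnajc14 went from 35.4 ± 0.494 to 30.2 ± 1.55 RPKM at 24 h (SD, n = 4 each, -0.22, limma adjusted p = 0.00311). It shares 17% of its exons with Ormdl2 on the other strand. Outside these families, 22 genes of the ER unfolded protein response were tested, with 3 higher and 4 lower at each time against naive, in all 31.8%, against 36.7% and 45.9% of all genes. Atf4 and Atf6, transcription factors of that response, rose at 2 h (0.45 and 0.37, limma adjusted p = 0.000258 and 0.00046), and Xbp1, another, fell at 24 h (-0.49, limma adjusted p = 1.55e-05).

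Among the 3 HSP90 genes Hsp90aa1 alone passed in the fit of all 12 libraries. It measured 22.5, 35.5, 28.1 and 28.5 RPKM in naive, 25.7, 23.7, 28.0 and 38.8 at 2 h, and 36.3, 58.3, 35.0 and 37.9 at 24 h. At 24 h replicate 2 was far above its neighbours, and replicate 3 lay below the highest naive library. The rise at 24 h against naive was 0.52 ± 0.19 (SE, limma adjusted p = 0.0422). It was lost in 8 of 24 other fits, including without 24 h replicate 2 or 4, naive replicate 1, 3 or 4, or 2 h replicate 3 (adjusted p up to 0.119), and without the 3 high libraries the value was 0.46. The rise from 2 h to 24 h (0.51, adjusted p = 0.0414) was lost in 10 other fits, those without naive replicate 3 or 4, 2 h replicate 1, 2 or 3 or 24 h replicate 2 or 4 among them. Hsp90ab1 measured 232, 295, 245 and 232 RPKM in naive, 244, 223, 227 and 302 at 2 h, and 249, 319, 236 and 244 at 24 h. No comparison of it passed, with 95% intervals of -0.28 to 0.25 at 2 h and -0.21 to 0.32 at 24 h. For 24 h against 2 h Hsp90b1 gave 0.22 (limma adjusted p = 0.129), and 0.24 without the 3 high libraries.

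Of 18 tested HSP90 co-chaperones, 4 were higher and 3 lower at 2 h, 8 and 1 at 24 h against naive, and 12 and 1 at 24 h against 2 h. The shares called were 38.9%, 50% and 72.2%, against 36.7%, 45.9% and 52.5% of all genes. Nudc, a co-chaperone linked to dynein, rose at 24 h from 29.1 ± 0.443 to 52.1 ± 4.89 RPKM (SD, n = 4 each, limma adjusted p = 5.74e-07), and the kinase loader Cdc37 by 0.24 (limma adjusted p = 0.00158). Chordc1 fell at 2 h, from 37.4 ± 4.18 to 19.7 ± 3.57 RPKM (SD, n = 4 each, limma adjusted p = 0.00629). Unc45a, the myosin chaperone, rose at 2 h (0.67, limma adjusted p = 0.000115) and fell from 2 h to 24 h (-0.89, adjusted p = 2.76e-06). Of 14 other HSP70 cofactors 2 were higher and 0 lower at 2 h, and 4 and 1 at 24 h against naive, in all 14.3% and 35.7%, against 36.7% and 45.9% of all genes. Stub1 (CHIP), the ubiquitin ligase that marks clients of HSP70, was 35.6 ± 2.06 RPKM in naive and 55.5 ± 4.6 at 24 h (SD, n = 4 each, limma adjusted p = 4.99e-05).

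The transcription factors of the response differed. Hsf2 measured 5.83, 6.66, 5.42 and 5.13 RPKM in naive, 5.17, 6.21, 6.50 and 5.92 at 2 h, and 8.96, 8.65, 9.24 and 9.81 at 24 h. It rose 1.59-fold at 24 h against naive (0.59 ± 0.08, SE, limma adjusted p = 9.16e-05), with every 24 h library above the other 8. Hsf1 measured 19.2, 18.5, 19.3 and 16.7 RPKM in naive, 21.3, 17, 18.6 and 20.7 at 2 h, and 17.6, 17.4, 15.8 and 16.4 at 24 h. It did not pass against naive, and its fall from 2 h to 24 h (-0.19, limma adjusted p = 0.0454) was lost in 16 of 24 other fits, including without any single 24 h library, naive replicate 1, 2 or 3, or 2 h replicate 1, 3 or 4. Transcript levels do not show the activity of either factor.

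By their course over time, 8 of 65 tested members (12.3%, against 21.8% of all tested genes) changed at 2 h against naive and in the opposite direction from 2 h to 24 h (Dnajc5, Dnajb6, Hspb9, Dnajc9, Cct4, Dnajb1, Dnajb9 and Hspbap1). Of these, Dnajc9 ended 2.61-fold above naive and Dnajc5 also stayed above it, and the second step of Dnajb9 and Dnajc5 was lost in 13 and 10 of 24 other fits, as given above with the libraries concerned. In 20 members (30.8%, against 21.9% of all genes) the change was late, past the threshold at 24 h against both earlier groups and not at 2 h. Rises made up 19 of the 20 (29.2% of members, against 14% of all genes), Dnajc14 being the fall. Some of their calls for 24 h against 2 h were lost in other fits. Dnajc14 was lost in 13 of 24, including without any single naive library or 24 h replicate 1, 3 or 4. It was also lost without 2 h replicate 1, 2 or 4. Dnajc21 was lost in 11 of 23, including without 2 h replicate 1, 2 or 3 or 24 h replicate 2 or 4. Dnajc4 was lost in 4 of 24, including without 2 h replicate 2 or 24 h replicate 3. Losses of Cct3, Cct6a, Hsp90aa1 and Dnajc19 are given above. In 8 members (12.3%, against 10.8%) the change against naive had the same direction at both times, in 9 (13.8%, against 15.9%) the course was another, and in 20 (30.8%, against 29.6%) no comparison passed.

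In all 3 groups 1 library was most often the highest for these genes. The libraries were picked by these same counts, so the counts describe the choice and are no separate support. Genes that move together are not separate cases. Naive replicate 2 was the highest library of its group in 33 of 65 members (50.8%, against 24.5% over all tested genes), 2 h replicate 4 in 34 (52.3%, against 31.5%) and 24 h replicate 2 in 39 (60%, against 28%). HSP90 showed it fully, with 3 of 3 genes highest in each of these libraries, and so did the pair Hspd1 and Hspe1. All 8 CCT genes were highest in 24 h replicate 2 and 5 of 8 in naive replicate 2. At 2 h 4 of 8 were highest in replicate 4 and 4 in replicate 3. Of the 8 HSP70 genes, 6, 6 and 5 were highest in naive replicate 2, 2 h replicate 4 and 24 h replicate 2, and 24 h replicate 2 stood a median of 0.60 above the mean of the others of its group on the log2(RPKM + 1) scale. In the DNAJC family the counts were 7, 9 and 10 of 23, and in the Hspb-named genes 1, 2 and 1 of 4.

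The genes with a motif are counted here as well. Their values helped to pick these libraries, so the counts are no separate support. Hspd1 and Hspe1 share their matched bases. The 4 with a heat shock element were highest in naive replicate 2 in 4 cases, and in 2 h replicate 4 and 24 h replicate 2 in 3 each. The 3 with an ER stress response element (Hspa5, Hsp90b1 and Dnajc3) were highest in all 3 libraries. Of the 48 tested members with a window and no heat shock element, 22, 23 and 29 were highest there. Of the 49 with a window and no ER stress response element, 23, 23 and 29 were. Tested members without a window are in none of these counts, and the part of the motifs was not tested. Some of the other lists were also high in these libraries and some were not. The HSP90 co-chaperones summed to 484 RPKM in naive replicate 2 against 429 to 443 in the others of its group, to 453 in 2 h replicate 4 against 391 to 407, and to 666 in 24 h replicate 2 against 508 to 549. The ER unfolded protein response list was also highest in those libraries, at 1390, 1470 and 1790 RPKM, as were the HSP70 cofactors, at 276, 278 and 326 RPKM. The 17 dissociation and immediate early genes were not: their sums were highest in naive replicate 4 (1470), 2 h replicate 1 (2540) and 24 h replicate 1 (1010). Mitochondrial import and proteolysis summed highest in naive replicate 3 (248), 2 h replicate 3 (281) and 24 h replicate 2 (316). For prefoldin and CCT cofactors these were naive replicate 4 (108), 2 h replicate 4 (101) and 24 h replicate 2 (120). For actin and tubulin they were naive replicate 3 (1550), 2 h replicate 4 (1620) and 24 h replicate 2 (2060). The part of handling, depth or cell composition in this pattern was not tested. Nothing in the labels links the 3 libraries.

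**Figure D4:**
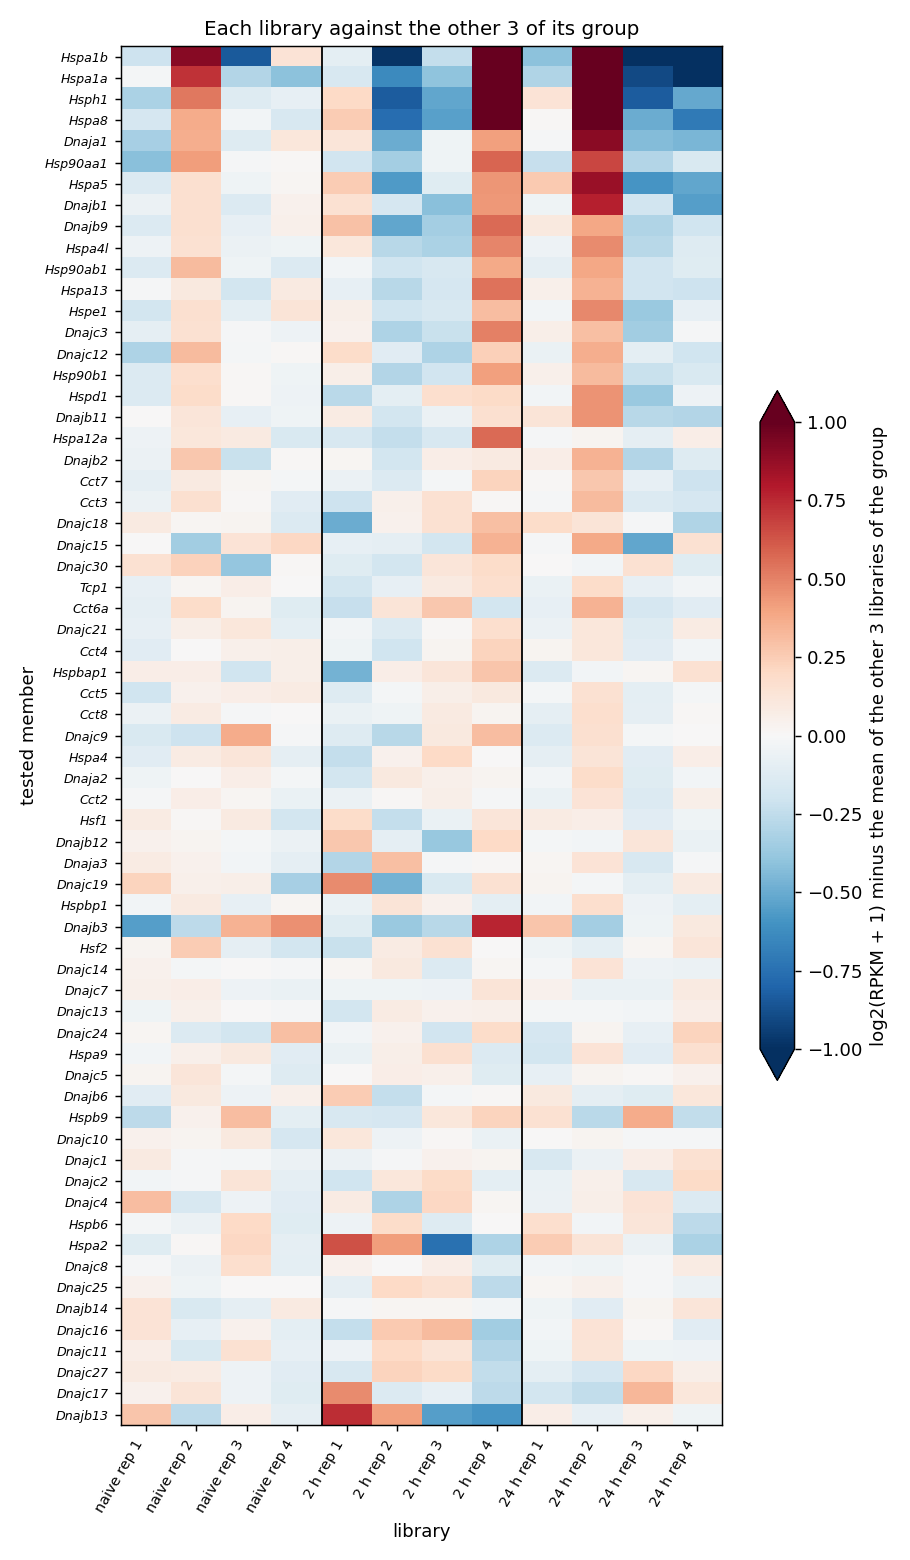
Each of the 65 tested members in each library, as log2(RPKM + 1) minus the mean of the other 3 libraries of its group. Colours saturate at 1 and -1, and genes are ordered by the sum over naive replicate 2, 2 h replicate 4 and 24 h replicate 2, so the order itself is no result. The red columns at the top are those libraries, where Hspa1b, Hspa1a, Hsph1 and Hspa8 lie highest.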

How the data were processed

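Per the labels' protocols, the PicoPure kit gave the RNA and the libraries followed the usual Illumina procedure. bcl2fastq, TopHat2, HTSeq and the build mm10 are named in the submitters' processing notes, without versions. The authors deposited RPKM values per Ensembl gene; how lengths, strand and filters were set is not given in the sources used. Whole reads, within 0.02 of a read, and library totals were recovered from the steps of the RPKM values in 11396 of 11419 tested genes (99.8%). They served for read numbers, levels per exon length and another fit.

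Differences were tested on log2(RPKM + 1) with limma 3.58.1 (R 4.3.3) in 1 model of the 12 libraries with a variance trend, for genes with at least 1 RPKM in at least 4 libraries. Tests were two-sided, with Benjamini-Hochberg adjustment over all tested genes per comparison and a threshold of 0.05. Fold changes on this scale understate the change of low genes. Ratios are of mean RPKM. Symbols, types and positions came from GENCODE M21 (mm10), and 10 pseudogene rows with a family symbol were left out. Copies of at least 90% identity were found with BLAST 2.17.0. The steps were tested on simulated data.

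Values in every library are given for the largest changes past the threshold, for members picked by role and for those that turned from early to late, and up to 3 genes of each other list with the smallest p. Members, lists and this rule were chosen with earlier results of these data known. Alternatives were pseudocounts, filters, scalings, no trend, 2 groups alone, a replicate block, voom, added copies, each library left out, and, chosen after seeing the data, 3 libraries per group.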

Additional observations from a re-analysis of the deposited data

Results flagged for a closer look

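In 9 of 99 groups of 4 libraries, over 33 named members, 1 library stood apart from the other 3 by Dixon's criterion, where chance gives about 1 in 20 for independent groups. The members were partly picked for large changes, and genes of 1 library can move together. The groups are thus not independent, and no excess over chance is read from the 9.

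Replicate 2 at 24 h was the highest for Hspa1a (5.91 RPKM, others 0.258 to 0.843), Hspa1b (13.7, others 0.337 to 1.25), Hsp90aa1 (58.3, others 35 to 37.9), Hsp90ab1 (319, others 236 to 249) and Cct6a (109, others 82.5 to 86.7). Hspa1a and Hspa1b share reads and are not separate cases. Replicate 4 at 2 h was the highest for Hspa12a (30.8 RPKM, others 19.9 to 20.8) and Dnajc15 (21.1, others 15.8 to 16.7). Naive replicate 4 was the highest for Hspb1, at 0.357 RPKM (others 0.062 to 0.0729), which is at most 4 reads. Naive replicate 3 was the lowest for Hspbap1, at 3.76 RPKM (others 4.46 to 4.48).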

How the results depend on the processing

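Across 24 other fits no call changed sign in a fit that could be made, and of the calls 14 of 18 (2 h against naive), 27 of 35 (24 h against naive) and 21 of 34 (24 h against 2 h) passed in every fit in which the gene was tested. The 5 members lower at 24 h against naive became 3 with the filter at 5 RPKM, 8 with the 2 groups alone and 9 with 3 libraries per group. The 5 lower at 24 h against 2 h became 3 with no variance trend and 2 with the 2 groups alone. The cause was not tested, except that the filter at 5 RPKM tests fewer genes. Leaving out each library gave 7 to 9 higher and 7 to 15 lower at 2 h against naive, 25 to 30 higher and 3 to 7 lower at 24 h against naive, and 23 to 32 higher and 2 to 4 lower at 24 h against 2 h.

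Same-numbered libraries of different groups did not deviate together (r of -0.0426 to 0.0548 in 12 pairs, against -0.129 to 0.0777 in 36 others). The replicate block gave 9 higher and 10 lower, 29 and 5, and 28 and 4 for the 3 comparisons in the same order. Members with few reads, such as Hspb1, Hspb9 and Dnajb3, are limited by depth.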
